A study of Mus musculus with 9 samples.

Results

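The comparison set lymph node against spleen in 3 kinds of freshly sorted mouse immune cells, to find transcripts whose level differed between the organs in the same direction in every kind. The cells were IKDC (interferon-producing killer dendritic cells), NK (natural killer cells) and CDC (conventional dendritic cells) from naive, untreated BALB/c mice aged 6 to 8 weeks. Each cell type had 1 lymph node array and 2 spleen arrays, so that 3 lymph node arrays stood against 6 spleen arrays, all 9 arrays of the series. A gene was described only where the lymph node array lay above both spleen arrays of its own cell type in CDC, NK and IKDC alike, or below both in all 3. Of 18193 genes, 3141 met this, 1496 higher (8.22%) and 1645 lower (9.04%) in lymph node. These were 17.3% of all genes, so the condition alone is loose, and the text turns on those members that also passed the test across all genes.

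CDC present antigen to T cells, NK kill infected or transformed cells and secrete interferon gamma, and IKDC were named for combining traits of both. Lymph nodes filter lymph and receive cells through lymphatic vessels and high endothelial venules, whereas the spleen filters blood. Immediate early genes are transcribed within minutes of receptor or stress signals, without new protein synthesis, and many encode transcription factors with short-lived transcripts.

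The labels give neither the sorting gates nor the animals behind an array, so p-values measure only the spread between these arrays, part of which may be technical. No lymph node group has a second array. The organ itself and any step that differed between the organs, such as tissue dissociation or the day of the sort, cannot be told apart. The median intensity ranged from 23.4 on spleen IKDC array 2 to 41.3 on the lymph node CDC array. Summed over 6 CDC markers, the deposited intensity was 12618 to 20389.2 on the 3 CDC arrays and 385.7 to 6704.3 on the 6 others, and over 5 NK markers 8844.2 to 23851.5 on the NK and IKDC arrays and 269.2 to 562.9 on the CDC arrays. The labelled cell types thus carried their markers in both organs, although spleen NK array 1 held 5031.9 units of CDC marker signal where array 2 held 385.7. Xist, a transcript of the silenced X, had levels of 6.02 to 6.36 on the spleen arrays numbered 1 and at 11.43 to 12.48 on all others, and the Y-linked Eif2s3y was at 8.84 to 9.40 on the former and at 4.28 or below on the latter. By these genes the spleen arrays numbered 1 had the pattern of male cells. Those numbered 2 and all lymph node arrays had that of female cells, which the labels do not mention.

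The tested organ difference came from 1 model of all 9 arrays with cell type as a block. It was fitted with limma to the 10916 genes at or above a mean level of 5.31. Levels are log2 normalized intensities, differences are lymph node minus spleen in log2 units, given ± the standard error (SE), and called means an adjusted p under 0.05 over all genes tested (limma, Benjamini-Hochberg). Of the 3141 members, 2155 passed the filter on low levels, 19.7% of the genes tested. Limma called 88 genes (0.806%), 40 higher (0.366% of those tested) and 48 lower (0.44%) in lymph node, and 1909 had an unadjusted p under 0.05. All 88 were members, but membership was read from the same arrays and adds no evidence to the test. The median difference over all tested genes was -0.02.

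The call count rested on few arrays. It was 9 without the lymph node IKDC array, 19 without that of CDC and 22 without that of NK. Without one of the spleen CDC or NK arrays it was 24 to 41, and without spleen IKDC array 1 or 2 it was 91 or 90. A fit with the spleen replicate number as a block called 343 genes (3.14%), 174 higher (1.59%) and 169 lower (1.55%), among them all 88. That fit sets the lymph node against the midpoint of both spleen numbers. It thus also called Xist and Eif2s3y, which divide the spleen arrays themselves, and 14 of its calls were not members. The block takes the spread between the spleen numbers out of the error, although the lymph node has no second set. Smaller p-values with the block are therefore no stronger evidence. With each array shifted to the same 75th percentile the split was 27 higher and 63 lower. Single genes held differently over the alternatives run for them: Atf3, Nr4a1, Ccrl2 and Egr1 were called in 26 of 26, Itgae in 24 of 27, Maff in 17 of 26, Il7r in 16 of 27 and Il22ra2 in 13 of 22.

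**Figure D1:**
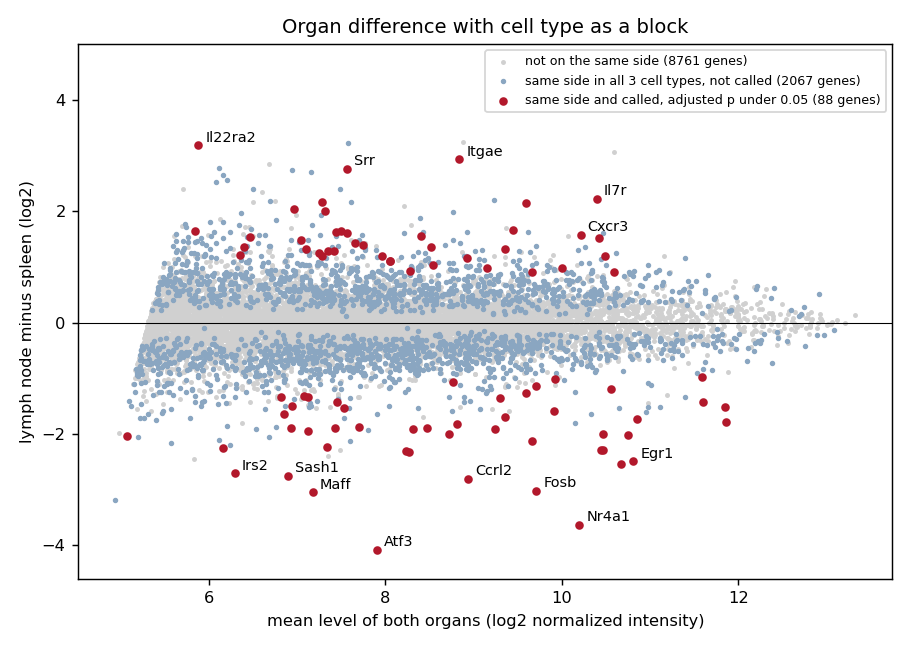
Lymph node minus spleen difference (log2, y axis) against the mean level of both organs (log2 normalized intensity, x axis) for the 10916 genes tested, 1 point a gene. The 88 called genes are red, members not called are blue and other genes grey, and the genes with the largest differences, Atf3 and Nr4a1, lie on the lower side.

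Promoters are shown first for Atf3 and Nr4a1, whose transcripts differed most, for Fosb and Dusp1, which encode a Fos protein and a phosphatase that switches off MAP kinases, and for Cxcr3, a chemokine receptor gene higher in lymph node. Each is the 250 bases before the gene's start, 5′ to 3′ on the gene's strand, from RefSeq on GRCm38.p6. Capitals mark the cyclic AMP response element (CRE) TGACGTCA and its core half-site CGTCA, on either strand. CREB and ATF proteins, of which Atf3 encodes one, are known to bind these letters.
Atf3, chr1:191183334-191183583, minus strand: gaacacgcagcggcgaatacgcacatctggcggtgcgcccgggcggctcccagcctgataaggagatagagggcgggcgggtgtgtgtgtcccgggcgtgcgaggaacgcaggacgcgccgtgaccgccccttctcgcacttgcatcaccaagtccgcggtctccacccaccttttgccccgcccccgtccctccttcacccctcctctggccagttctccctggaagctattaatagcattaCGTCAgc
Nr4a1, chr15:101266596-101266845, plus strand: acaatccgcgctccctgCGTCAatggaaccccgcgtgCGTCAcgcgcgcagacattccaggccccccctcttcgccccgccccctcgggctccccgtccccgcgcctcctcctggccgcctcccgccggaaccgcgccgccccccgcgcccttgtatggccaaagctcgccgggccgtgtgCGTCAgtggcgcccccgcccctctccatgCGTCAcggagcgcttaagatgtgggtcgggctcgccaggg
Fosb, chr7:19310046-19310295, minus strand: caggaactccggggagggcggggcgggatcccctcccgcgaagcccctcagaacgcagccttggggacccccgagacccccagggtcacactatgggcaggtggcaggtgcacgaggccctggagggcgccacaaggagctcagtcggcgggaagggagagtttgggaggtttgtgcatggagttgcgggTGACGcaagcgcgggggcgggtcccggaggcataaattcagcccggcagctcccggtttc
Dusp1, chr17:26508473-26508722, minus strand: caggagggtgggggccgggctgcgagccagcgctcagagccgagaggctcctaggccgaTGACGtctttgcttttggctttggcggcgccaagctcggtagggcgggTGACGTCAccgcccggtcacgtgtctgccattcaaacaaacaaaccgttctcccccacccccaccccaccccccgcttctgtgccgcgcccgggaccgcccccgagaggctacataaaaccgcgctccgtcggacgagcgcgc
Cxcr3, chrX:101734148-101734397, minus strand: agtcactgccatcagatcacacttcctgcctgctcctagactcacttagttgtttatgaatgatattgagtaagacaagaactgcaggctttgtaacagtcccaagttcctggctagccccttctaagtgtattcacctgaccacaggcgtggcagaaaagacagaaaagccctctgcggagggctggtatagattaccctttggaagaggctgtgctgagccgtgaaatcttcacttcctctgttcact

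Nr4a1 held 4 half-sites in these letters, Atf3 and Fosb 1 each, and Dusp1 a whole CRE beside a further half-site, while the Cxcr3 window held neither. For counting motifs, RefSeq promoter windows that also take in bases just after the start were found for 36 of the 48 called lower genes, 34 of the 40 called higher genes and 8913 of the genes tested. The half-site was present for 24 of the 36 (66.7%), against 12 of the 34 (35.3%) and 36.1% of all. The whole CRE, which contains the half-site on both strands, was present for 5 of the 36, namely Dusp1, Maff, Nfkbid, Plk2 and Ppp1r15a (13.9%), against 0 of the 34 and 3.65% of all.

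The other motifs were searched on both strands of the same windows. A site of NF-kappaB, which drives inflammatory genes, was present for 27.8% of the lower genes, 8.82% of the higher genes and 9.81% of all. The Egr site GCGNGGGCG was present for 27.8%, 8.82% and 12.4%, and the CArG box, bound by serum response factor, for 5.56%, 0% and 1.54%. The AP-1 site TGANTCA was present for 5.56%, 17.6% and 6.13%, and the TATA box letters TATAAA for 11.1%, 11.8% and 8.78%. The lower genes had 1.5 windows a gene and the others 1.29, which raises the chance of a match for the former. The motifs were chosen after the called genes were known. These matches describe letters and carry no test.

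Immediate early genes were frequent among the lower transcripts. Of 23 genes written into that list, all tested, 18 lay below both spleen arrays in all 3 cell types, as did 10.4% of genes tested, and 0 lay above, as did 9.3%. Limma called 9 lower, against 0.44% of all genes tested, and 0 higher, against 0.366%. The list was written with earlier results of these data known. The median difference over the 23 was -1.52, against -0.02 over all genes. The median level of the 23 genes was 11.44 and 11.66 on the spleen CDC arrays against 9.53 in lymph node, 11.33 and 12.10 on the spleen NK arrays against 10.36, and 10.86 and 11.62 on the spleen IKDC arrays against 9.54. No lymph node value reached a spleen value. With the replicate block 15 of the 23 were called lower, against 1.55% of all genes tested, and without the lymph node IKDC array 5.

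Atf3, a stress-induced transcription factor of the ATF/CREB family, differed most. It read 12.08 and 11.92 on the spleen CDC arrays, 9.56 and 9.22 on the spleen NK arrays and 8.80 and 8.07 on the spleen IKDC arrays. The lymph node arrays read 7.85 in CDC, 5.11 in NK and 4.61 in IKDC. The groups did not overlap within any cell type, as the membership rule requires, and the fitted difference was -4.08 ± 0.21 SE (adjusted p = 0.000138). CDC had the highest Atf3 level of the 3 cell types in both organs. The lymph node NK and IKDC values lay under the filter level of 5.31, near background, so no fold is given.

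Nr4a1, an orphan nuclear receptor induced by antigen receptor and other signals, was nearly as high in every spleen sample. Its levels were 12.06 and 12.47 in CDC, 12.21 and 12.10 in NK and 11.59 and 11.62 in IKDC from spleen, against 7.94, 8.81 and 8.39 from lymph node in the same order. The 6 spleen arrays lay within 1 log2 unit of each other and all lay more than 2 log2 units above every lymph node array. The difference was -3.63 ± 0.22 SE, 12.3-fold (adjusted p = 0.000231). Both other members of its family were called too, Nr4a2 at -2.33 ± 0.40 SE and Nr4a3 at -1.83 ± 0.31 SE.

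The Fos, Jun and Egr genes encode transcription factors that carry early signals to later target genes. Fosb read 11.32 and 11.66 in spleen CDC against 7.5 in lymph node, 11.06 and 10.87 in NK against 8.78, and 10.50 and 11.88 in IKDC against 8.29 (-3.02 ± 0.37 SE, adjusted p = 0.0114). Egr1 read 12.59 and 12.81 in CDC against 9.59, 11.66 and 12.15 in NK against 10, and 11.38 and 11.69 in IKDC against 9.09 (-2.49 ± 0.23 SE, adjusted p = 0.00251). Both genes were thus several-fold lower on every lymph node array than on its spleen counterparts. Jun, Junb and Jund were members with differences of -1.52, -1.65 and -0.71 and were not called, although Jun and Junb were with the replicate block. Fos itself was just outside the membership rule. Its lymph node IKDC array read 12.45, level with spleen IKDC array 1, and its difference was -0.36 ± 0.13 SE (adjusted p = 0.218). Its spleen levels of 12.45 to 13.02 lay close to the highest level on any array, 13.42. A probe set can lose its response near the top, which was not tested. Called genes reached like levels in spleen, such as Egr1 at up to 12.81 and Dusp1 at up to 12.92.

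**Figure D2:**
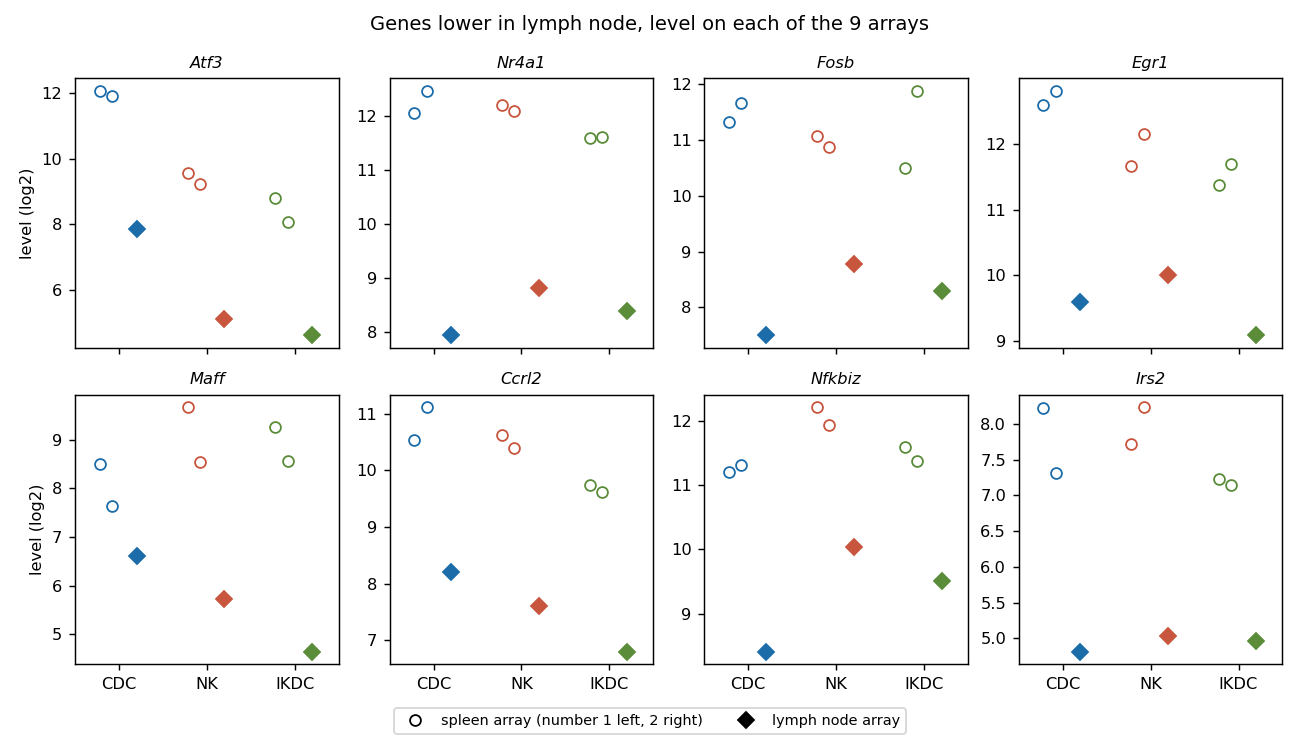
Level (log2 normalized intensity, y axis, own scale per gene) of 8 genes lower in lymph node on each of the 9 arrays, by cell type (x axis). Open circles are the 2 spleen arrays and diamonds the lymph node array. By the membership rule every diamond lies below both circles of its cell type, as for Nr4a1 at 7.94 to 8.81 against 11.59 to 12.47.

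Maff, a small Maf protein that pairs with other leucine zipper factors, read 8.50 and 7.63 in spleen CDC against 6.60 in lymph node, 9.67 and 8.54 in NK against 5.73, and 9.27 and 8.56 in IKDC against 4.63. Its gap was narrowest in CDC, and the difference was -3.05 ± 0.50 SE (adjusted p = 0.0314). Sash1, a signalling scaffold, read 11.24 and 10.98 in spleen CDC against 7.26 in lymph node. Its levels were 6.04 and 6.76 in NK against 3.53, below the filter level, and 7.92 and 6.66 in IKDC against 5.76 (-2.75 ± 0.43 SE, adjusted p = 0.0278). Dnajb4, a heat shock cochaperone, was lower by -2.30 ± 0.28 SE (adjusted p = 0.0114). Dnajb4 had 3 probe sets, and of the others 1 shared its sign and 1 met the membership rule. In the heat shock list 0 of 10 genes were members, against 19.7% of all genes tested, and their median difference was 0.01.

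Dusp1, which switches off MAP kinases, stood at 12.85 and 12.89 in spleen CDC, 12.82 and 12.92 in NK and 12.41 and 12.64 in IKDC, against 10.73, 11.67 and 10.50 in lymph node (-1.79 ± 0.18 SE, adjusted p = 0.00425). Zfp36, which destabilises cytokine transcripts, was lower by -1.52 ± 0.14 SE, and Ppp1r15a, which restores translation after stress, by -1.59 ± 0.16 SE. Of 14 dual-specificity phosphatase genes tested, 6 were members on the lower side (10.4% of all genes tested), 1 on the higher (9.3%), and 3 were called lower (0.44%), Dusp1, Dusp2 and Dusp5. Their median difference was -0.32. Of 3 Pim kinase genes Pim1 and Pim3 were called lower, and of 4 Polo-like kinase genes Plk2 and Plk3, against 0.44% of all genes tested. The lymph node mean of Plk2 was 5.04, below the filter level, and its other probe set did not share its sign. These families were read off the called genes after their values were seen, so their counts support nothing.

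**Figure D3:**
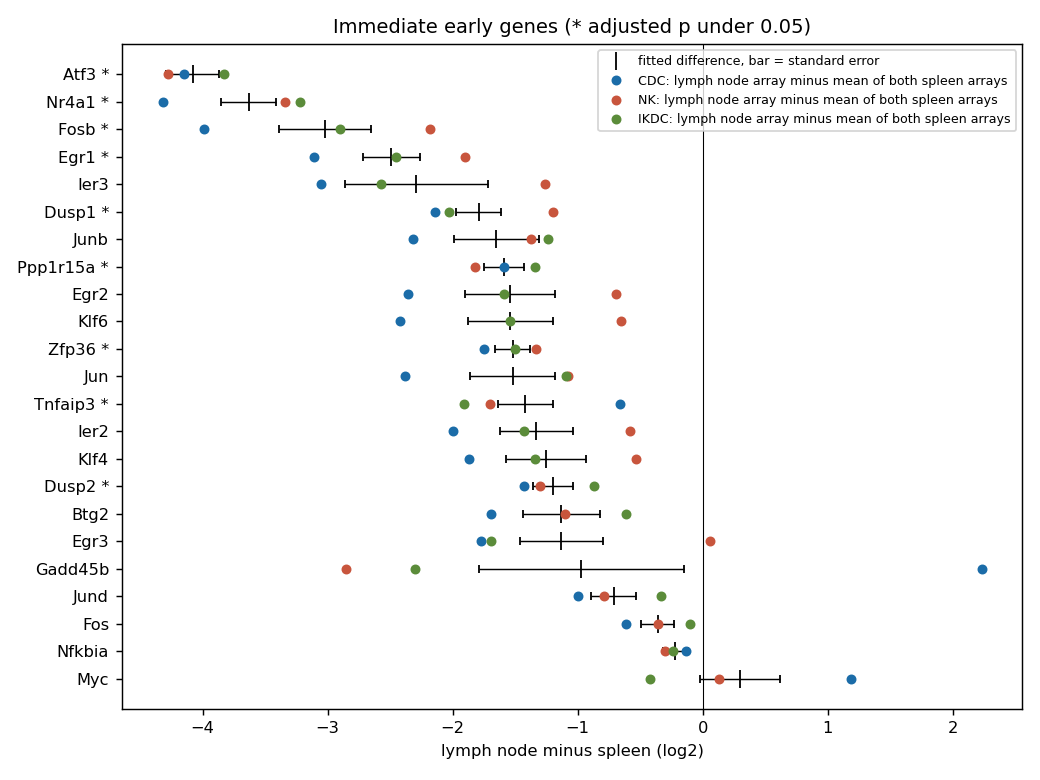
Lymph node minus spleen difference (log2, x axis) for each of the 23 immediate early genes (y axis), with the fitted difference and its standard error in black and the difference within each cell type as a coloured point. An asterisk marks the 9 called genes. Most points lie left of 0, and Gadd45b in CDC, at 10.39 against 7.63 and 8.68 in spleen, lies to the right.

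Some called genes are known regulators of NF-kappaB. Nfkbiz, an inducible nuclear cofactor of NF-kappaB, read 11.20 and 11.32 in spleen CDC, 12.21 and 11.94 in NK and 11.60 and 11.38 in IKDC, against 8.40, 10.04 and 9.51 in lymph node (-2.29 ± 0.19 SE, adjusted p = 0.00165). Of 6 genes for inhibitors or cofactors of this kind, 4 were members on the lower side (10.4% of all genes tested) and Nfkbiz, Nfkbid and Tnfaip3 were called (0.44%), but the family was read off the called genes. Nfkbia, the classical inhibitor, was a member at only -0.22 ± 0.10 SE (adjusted p = 0.308), with spleen levels of 12.94 to 13.17 near the top of the scale. Of 4 subunit genes, with a median of -0.04, 1 was called, Rel (-1.95 ± 0.34 SE). Tnfaip3 differed by -0.66 in CDC, -1.70 in NK and -1.91 in IKDC. The Nfkbiz probe set with the second-highest mean gave -0.05.

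Ccl3 and Ccl4 were the called ones among 9 CC chemokine genes tested, a family read off the called genes, of which 1 was a member on the higher side and whose median was 0.35. Ccl3, a chemokine that NK release on activation, read 13.13 and 13.12 in spleen NK against 11.52 in lymph node, 12.68 and 12.74 in IKDC against 10.44, and 10.30 and 9.66 in CDC against 6.24 (-2.54 ± 0.34 SE, adjusted p = 0.0157). Ccl4, a related chemokine, was lower by -2.13 ± 0.34 SE (adjusted p = 0.0278). Ccrl2, an atypical receptor that presents chemerin without signalling, read 10.53 and 11.11 in CDC, 10.62 and 10.39 in NK and 9.74 and 9.62 in IKDC from spleen, and 8.20, 7.61 and 6.79 from lymph node (-2.81 ± 0.18 SE, adjusted p = 0.000323). Spleen and lymph node arrays did not overlap for either chemokine or for Ccrl2 within a cell type, as for every member. Among 18 cytotoxic effector genes, 4 were members, all lower (10.4% of all genes tested), Ccl3 and Ccl4 were called (0.44%), and the median was -0.12. Perforin (Prf1) and serglycin (Srgn) differed by -0.80 ± 0.24 SE and -0.48 ± 0.14 SE (adjusted p = 0.148 and 0.136).

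Irs2, an adaptor of insulin and cytokine receptors, read 7.14 to 8.23 on the 6 spleen arrays and 4.81, 5.03 and 4.97 on the lymph node arrays. All 3 lymph node values were below the filter level, so the fold is at least 5.04 (-2.71 ± 0.27 SE, adjusted p = 0.00425). Of 12 glucocorticoid response genes 4 were members, all lower (10.4% of all genes tested), and Dusp1 and the clock gene Per1 were called (0.44%). Dusp1 and the member Nfkbia also stand in the immediate early list. Per1 differed by -1.42 ± 0.25 SE (adjusted p = 0.0451). Tsc22d3, a steroid-induced inhibitor of inflammation, differed by -1.40 ± 0.35 SE (adjusted p = 0.105, 0.0188 with the replicate block, and 0.0188 to 0.507 over all alternatives).

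The higher transcripts included receptors and adhesion molecules. Itgae encodes CD103, the integrin alpha chain that binds E-cadherin and marks cross-presenting and barrier-associated dendritic cells. It read 8.65 and 9.06 in spleen CDC against 11.04 in lymph node, 6.70 and 6.86 in NK against 10.82, and 6.35 and 6.63 in IKDC against 9.05. Each lymph node array was far above its spleen pair, and the difference was 2.93 ± 0.32 SE, 7.62-fold (adjusted p = 0.00667). It was widest in NK, at 4.04, and narrowest in CDC, at 2.19.

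Il7r, the interleukin 7 receptor chain of immature and memory lymphocytes, and Cxcr3, a receptor for interferon-induced chemokines, were higher too. Il7r read 7.60 and 7.82 in spleen CDC against 9.86 in lymph node, 9.12 and 10.09 in NK against 12.53, and 11.10 and 9.98 in IKDC against 12.11 (2.22 ± 0.34 SE, adjusted p = 0.0262). Cxcr3 read 8.68 and 8.60 in CDC against 10.42, 9.43 and 9.19 in NK against 11.28, and 10 and 10.63 in IKDC against 11.31 (1.58 ± 0.23 SE, adjusted p = 0.0204). Neither gene overlapped within a cell type, as for every member, and in spleen both stood higher in IKDC than in CDC. Clec2d, a lectin that NK inhibitory receptors recognise, read 5.30 to 6.87 on the spleen arrays and 8.25, 8.38 and 8.31 on the lymph node arrays (2.00 ± 0.28 SE, adjusted p = 0.0204). Klrk1, the gene of the activating receptor NKG2D, singled out after its values were seen, was higher by 0.97 ± 0.16 SE (adjusted p = 0.035).

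**Figure D4:**
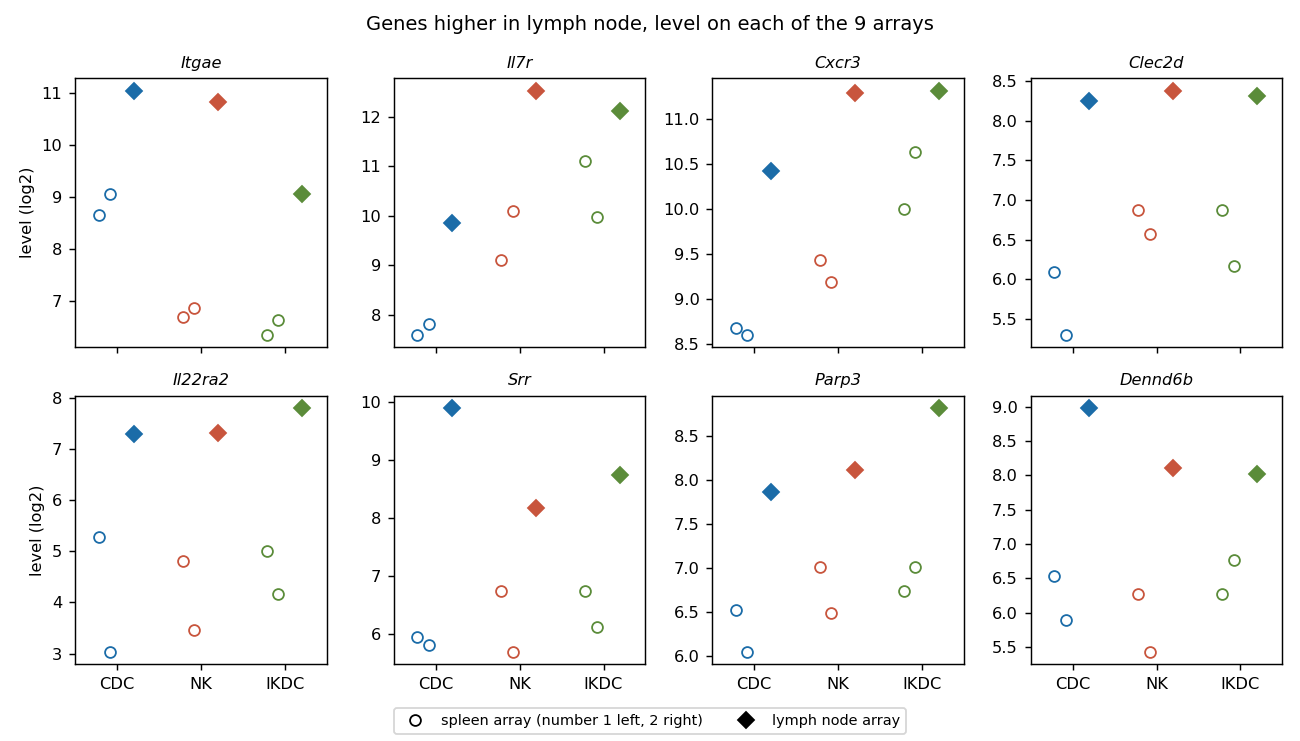
Level (log2 normalized intensity, y axis, own scale per gene) of 8 genes higher in lymph node on each of the 9 arrays, by cell type (x axis). Open circles are the 2 spleen arrays and diamonds the lymph node array. By the membership rule every diamond lies above both circles of its cell type, as for Clec2d at 8.25 to 8.38 against 5.30 to 6.87.

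Il22ra2 encodes a soluble receptor that neutralises interleukin 22. It read 3.03 to 5.28 on the 6 spleen arrays, all below the filter level of 5.31, and 7.30 in CDC, 7.31 in NK and 7.80 in IKDC from lymph node. The lymph node signal was thus at least 4.47-fold above that level (3.18 ± 0.51 SE, adjusted p = 0.0306). Srr, serine racemase, read 5.69 to 6.75 in spleen and 9.90, 8.18 and 8.75 in lymph node (2.76 ± 0.40 SE, adjusted p = 0.0207), but its probe set with the second-highest mean gave -0.27 (adjusted p = 0.585, against 0.0095 to 0.585 over all alternatives). Of its 5 further probe sets 3 shared the sign and 1 met the membership rule.

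Pan3, a subunit of a complex that shortens poly(A) tails, read 7.69 to 9.14 in spleen and 10.62 to 10.71 in lymph node (2.14 ± 0.33 SE, adjusted p = 0.0271). Dennd6b, an exchange factor for Rab proteins, differed by 2.17 ± 0.31 SE and Parp3, an ADP-ribosyltransferase of DNA repair, by 1.63 ± 0.22 SE. The second probe set by mean gave 0.05 for Pan3, 0.06 for Dennd6b and 0.31 for Parp3. Of the further probe sets, 3 of 3 for Pan3, 3 of 3 for Dennd6b and 1 of 2 for Parp3 shared the sign, and 1 of Pan3 met the membership rule. The semaphorin Sema6c (1.65 ± 0.30 SE), the lysozyme-like Spaca3 (1.64 ± 0.29 SE) and the transcripts AI504432 (1.66 ± 0.26 SE) and D130051D11Rik (2.03 ± 0.22 SE) were also among the 12 largest called differences. The spleen mean of Spaca3 was 5.02, below the filter level.

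Other probe sets of the called genes bear on how far single probe sets can be trusted. The 48 lower genes had 57 further probe sets, of which 41 had the same sign and 19 met the membership rule. The 40 higher genes had 55, of which 38 had the same sign and 10 met the rule. Atf3, Nr4a1, Fosb, Ccrl2, Egr1, Irs2, Maff, Il22ra2, Clec2d and Cxcr3 had no further probe set. Itgae and Il7r had 1 each, at 1.64 and 2.66, and that of Il7r met the membership rule while that of Itgae did not. Neither of the 2 further probe sets of Sema6c had its sign.

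Homing and egress genes were mixed. Of 22 tested, 5 were members on the higher side (9.3% of all genes tested) and 4 on the lower (10.4%). Itgae and Cxcr3 were called higher (0.366% of all genes tested). Ccr2, Ccr7 and Ccr9, receptors for inflammatory, lymphoid and gut chemokines, were members on the higher side at 1.06 ± 0.31 SE, 1.58 ± 0.56 SE and 3.23 ± 0.88 SE (adjusted p = 0.138, 0.204 and 0.124). Ccr9, which also stands in the plasmacytoid DC list, differed by 6.22 in IKDC but by 2.65 in CDC and 0.83 in NK. The Ccr2 probe set with the second-highest mean gave -0.13. Cd69, an early activation antigen that holds cells in tissue, read 11.14 and 10.68 in spleen NK against 9.57 in lymph node (-1.43 ± 0.31 SE over all cell types, adjusted p = 0.0785, 0.00942 with the replicate block, and 0.00942 to 0.343 over all alternatives). Cxcr4, the CXCL12 receptor, was a member at -0.77 ± 0.50 SE (adjusted p = 0.463).

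Genes of migratory dendritic cells, which carry antigen from tissue to node, lay to the higher side. Of 14 tested, 6 were members, all higher (9.3% of all genes tested), 0 were called and the median difference was 0.75, with 1.27 in CDC, 0.46 in NK and 0.55 in IKDC. Ccl22, a chemokine for regulatory T cells, read 5.43 and 7.02 in spleen CDC against 10.85 in lymph node, but only 5.61 in lymph node NK and 6.03 in lymph node IKDC (2.78 ± 0.60 SE, adjusted p = 0.0785, 0.0354 with the block, and 0.0354 to 0.341 over all alternatives). Fscn1, an actin bundler of mature dendritic cells, read 10.18 and 10.52 in spleen CDC against 12.80, and differed by 2.20 ± 0.45 SE (adjusted p = 0.0711, 0.04 with the block, and 0.0222 to 0.443 over all alternatives). Its probe set with the second-highest mean gave -0.53. Tmem123 differed by 0.91 ± 0.18 SE (adjusted p = 0.065, 0.0171 with the block, and 0.0171 to 0.368 over all alternatives).

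Markers of other cells moved with these groups on single arrays. The plasmacytoid DC list had 4 of 10 tested genes on the higher side (9.3% of all genes tested) and 0 called, with a median of 2.82 in IKDC but 0.50 in CDC and 0.16 in NK. Summed intensity over its 8 markers was 11080.4 on the lymph node IKDC array, 1539.7 and 1949.8 on the spleen IKDC arrays, and 1344.9 to 3207.1 on the other 6. Siglech, a surface lectin of plasmacytoid DC, read 10.78 in lymph node IKDC and 4.79 to 6.51 everywhere else (2.19 ± 0.68 SE, adjusted p = 0.158). The B cell genes Blnk and Fcrla, members on the higher side at 2.53 ± 0.61 SE and 2.64 ± 0.64 SE (adjusted p = 0.0988 and 0.0987), were likewise highest in lymph node IKDC, at 9.62 and 9.93. The B cell list as a whole went different ways by cell type. Its 11 tested genes had a median of 0.01, with -0.54 in CDC, 0.44 in NK and 1.08 in IKDC. Cd22 was a member on the lower side (-1.59). Ms4a1 differed by 0.01, with -1.20 in CDC and 1.08 in IKDC. The sum over 8 B cell markers was 468.6 in lymph node IKDC, 155.5 and 121.4 in spleen IKDC, and 530.7 and 804 in spleen CDC.

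The sum over 7 T cell markers was 4247.6 in lymph node NK, 2787.8 and 1058.7 in spleen NK, 2910.4 in lymph node IKDC and 2974.6 and 1493.7 in spleen IKDC. The sum over 8 markers of lymph node stroma and endothelium was 2678.8 in lymph node NK, 596.8 in lymph node IKDC, 304 in lymph node CDC and 167.1 to 315.4 in spleen. Glycam1, a mucin of high endothelial venules below the filter by its mean, read 11.30, 8.08 and 5.08 on these arrays and 2.85 to 3.29 in spleen. The other 12 measured genes of that list read 4.07 to 6.25 on the lymph node NK array and 3.21 to 6.80 on the spleen NK arrays, so the sum there is mostly that of Glycam1. The sum over 12 macrophage markers was 11386.7 in lymph node CDC against 7208.1 and 7205.6, but 2234.3 in lymph node IKDC against 1474.4 and 4175.9. The part of these cells in the organ differences was not tested, and fewer cells of a type cannot be told apart here from less RNA per cell.

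Proliferation genes lay to the lower side, along with a split of the spleen arrays. Of 30 tested, 8 were members, all lower (10.4% of all genes tested), 0 were called and 6 were called lower with the block (1.55%). Their median level was 8.88, 8.76 and 9.70 on the CDC, NK and IKDC spleen arrays numbered 1, 7.32, 7.12 and 7.26 on those numbered 2, and 7.90, 6.90 and 6.84 in lymph node. The lymph node thus resembled spleen arrays 2 more than spleen arrays 1. Top2a, which untangles replicated DNA, differed by -2.58 from spleen arrays 1 and by -0.54 from spleen arrays 2 (adjusted p = 0.25 over both, 0.016 with the block, and 0.016 to 0.964 over all alternatives). Pcna, the replication clamp, differed by -1.06 and -0.75 (adjusted p = 0.0608 over both, 0.0181 with the block, and 0.0181 to 0.37 over all alternatives). Eif2s3y was a member by a margin of 0.02 in IKDC.

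Most called genes named here differed by like amounts from both sets of spleen arrays. Against spleen arrays 1 alone Atf3 differed by -4.29 and against spleen arrays 2 alone by -3.88, Nr4a1 by -3.57 and -3.68, Itgae by 3.07 and 2.79 and Il7r by 2.23 and 2.21. Il22ra2 (2.44 and 3.92), Nr4a2 (-2.93 and -1.72), Pan3 (1.67 and 2.61) and Maff (-3.49 and -2.60) differed more between both sets, with the same sign. The membership rule fixes that sign, and the test favours genes with little spread between spleen arrays, so the likeness is a description. Against the 3 spleen arrays numbered 2, which match the lymph node arrays in Xist, 52 genes were called and 29 of these were among the 88. Against those numbered 1, 149 were called and 49 were among the 88.

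**Figure D5:**
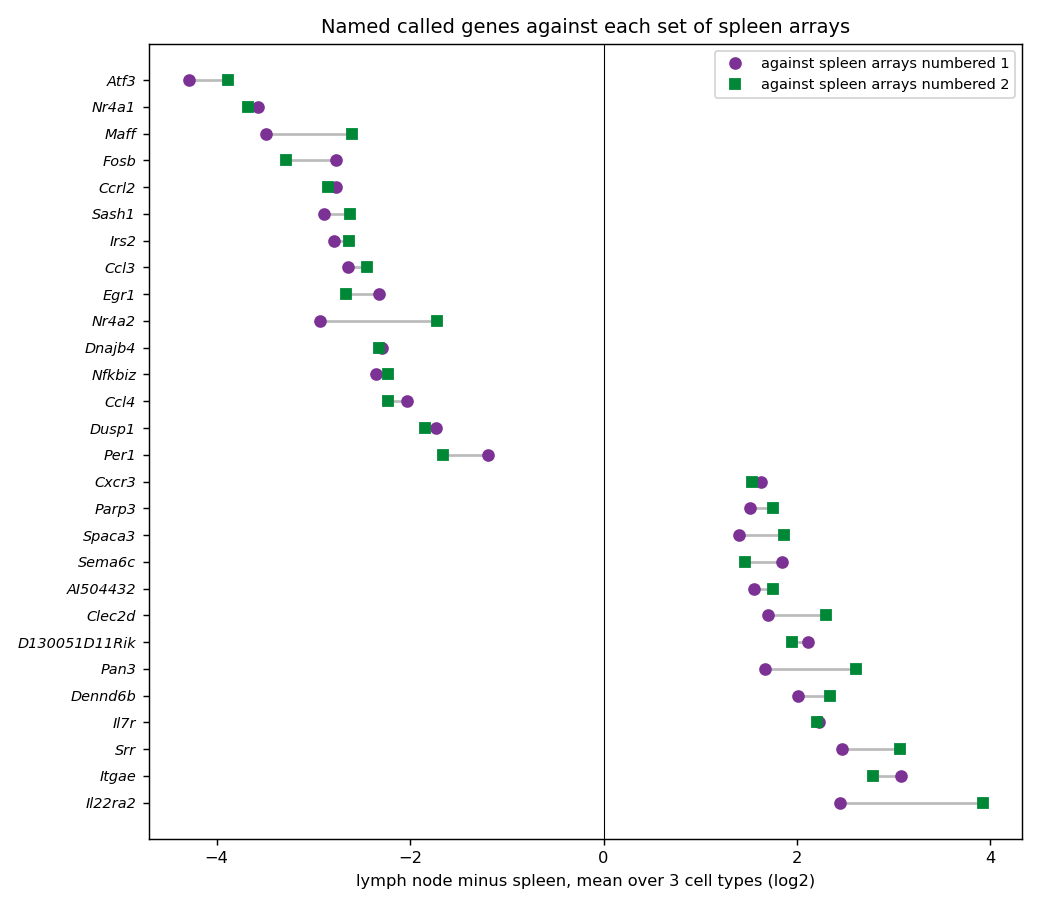
Lymph node minus spleen difference (log2, x axis), averaged over the 3 cell types, for the called genes named by rule (y axis), once against the spleen arrays numbered 1 (circles) and once against those numbered 2 (squares). Both values share a sign for every gene shown, as the membership rule requires, with the widest distance at Il22ra2, 2.44 and 3.92. The lymph node arrays are common to both values.

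Interferon response genes went both ways. Of 21 tested, 6 were members on the higher side (9.3% of all genes tested) and 2 on the lower (10.4%), with 0 called and a median of -0.04. Mx1, named for an antiviral GTPase but annotated in mouse as a transcribed pseudogene, differed by 1.31 ± 0.30 SE (adjusted p = 0.0855). Irf9, a subunit of the interferon-activated factor, differed by 0.78 ± 0.18 SE (adjusted p = 0.0855). Oas2, a sensor of double-stranded RNA, differed by -0.82 ± 0.23 SE (adjusted p = 0.134). Ifi27l2a differed by 1.39 ± 0.48 SE (adjusted p = 0.191, 0.021 with the block, and 0.021 to 0.492 over all alternatives). Pmepa1, a target and inhibitor of TGF-beta signals, differed by 1.63 ± 0.32 SE (adjusted p = 0.0608, 0.0359 with the block, and 0.0359 to 0.308 over all alternatives) and was among 4 of 12 TGF-beta and retinoid response genes on the higher side (9.3% of all genes tested), of which Itgae was called.

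None of 12 class II presentation genes was a member, and of 17 conventional DC genes 3 were members, near the 19.7% of all genes tested: Itgae was higher and Irf4 and Esam, which mark a splenic subset, were lower at -1.34 ± 0.43 SE and -1.05 ± 0.42 SE (adjusted p = 0.174 and 0.249). Of 18 NK maturation genes 3 were members too, again near that share. Il7r and Cd27, both of early stages, were members on the higher side, and Itgam, which encodes CD11b and marks later stages, on the lower. Cd27 differed by 1.00 ± 0.38 SE and Itgam by -1.03 ± 0.49 SE (adjusted p = 0.233 and 0.318). Cd27 was a member by a margin of 0.02 in CDC, at 4.77 against 4.75 and 3.2 in spleen, all below the filter level. Itgam read 5.16 in lymph node IKDC, also below that level. Over the 18 NK maturation genes the median difference was -0.16, with 8 genes positive and 10 negative. Whether the stage of the cells differed between the organs was not tested. Slc40a1, the iron exporter of splenic macrophages, differed by -1.72 ± 0.58 SE (adjusted p = 0.186). Its lymph node mean of 4.93 was below the filter level. It differed by -0.96 from spleen arrays 1 and by -2.47 from spleen arrays 2. Of 13 macrophage genes tested, 1 was a member on the lower side (10.4% of all genes tested) and 0 on the higher (9.3%). The median difference of these 13 was 0.06.

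Whether the organ difference varied over the cell types was tested by the interaction of both. Limma called 0 of 10916 genes (0%), 522 had an unadjusted p under 0.05, and the smallest adjusted p was 0.393. With 3 residual degrees of freedom, all from the spleen pairs, this does not show that the differences were equal. Within the 48 called lower genes the median difference was -1.91 in CDC, -1.86 in NK and -1.92 in IKDC, and within the 40 higher genes 1.41, 1.31 and 1.5. These genes were chosen for a like direction in all 3, so the likeness of the medians is a description.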

How the data were processed

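Total RNA (6 µg, TRIzol and RNeasy) was labelled with biotin for Affymetrix arrays, per the labels' protocols. The deposited intensity values are linear, 1 for each probe set. Each array's trimmed mean is near 150; how the authors reached it was not stated. All other steps were computed here.

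An offset of 6.49, the 20th percentile of all 45101 × 9 values, was added, then log2 and quantile normalization were applied. The 34945 probe sets with 1 symbol gave 18193 genes, each represented by its brightest probe set on average; 932 probe sets had several symbols, 9160 none, and 64 were controls. Of these, 10916 with a mean level from the 40th percentile up were tested with limma 3.58.1 in R 4.3.3 (lmFit, eBayes with a trend, two-sided, Benjamini-Hochberg, threshold 0.05, 5 residual and 4.05 prior degrees of freedom). Lymph node arrays carry no replicate number. Spleen arrays of the same number deviated alike (r over genes 0.412, 0.529 and 0.485), whereas the main fit treats all 9 arrays as independent. The p-values of the main fit may therefore be too small. A fit with the spleen number as a block is given where it changes a call. The lymph node has no second set, so the p-values of the block fit may be too small as well. Folds against a mean below 5.31 are lower bounds. The number of arrays limits the precision. Functions were tested on simulated data.

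Named genes were the 12 largest called differences in each direction, up to 4 members of each of 29 lists, and 30 fixed genes where they were members (9 were; 25 were measured). Members and lists were chosen with earlier results of these data known. Alternatives covered normalization, offset, filter, probe sets, spread, model, fold minimum and the arrays used. Lists not described above had no called member.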

Additional observations from a re-analysis of the deposited data

How the results depend on the processing

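The count of 88 called genes stayed between 67 and 107 as deposited, shifted, with offsets of 1 or 50, other filters, averaged probe sets, no trend, a robust fit or a 2-fold minimum. The genes themselves changed more, as 50 of the 88 were called with averaged probe sets, 62 with no filter, 70 when shifted and 86 with the robust fit. The count was less stable under other choices. It was 343 with the replicate block, 221 with each probe set alone, 41 with 6 groups, 149 and 52 against spleen arrays 1 and 2 alone, and 16, 6 and 27 with CDC, NK and IKDC left out. Leaving out each array gave 9 to 91 called genes, 2410 to 4095 members and 5 to 12 called immediate early genes. Members were 2155 among tested genes, 3141 with no filter, 4212 probe sets taken alone, 4865 and 4596 against spleen arrays 1 and 2, and 3450, 3556 and 4095 with CDC, NK and IKDC left out, where the rule asks less. Called immediate early genes were 15 with the replicate block and 4 with CDC or with NK left out. The interaction called 0 genes under every alternative run. The 4 genes that reversed sign in their second probe set were Srr (-0.27), Fscn1 (-0.53), Ccr2 (-0.13) and Gp1bb (0.19), and the cause was not tested. Spleen arrays 1 or 2 alone leave no residual for an interaction. Signal near background limits Irs2, Il22ra2, Atf3, Spaca3 and Plk2, and single lymph node values such as Maff in IKDC (4.63) and Sash1 in NK (3.53). Fos and Nfkbia lay near the top of the scale in spleen, as did the called Dusp1, Ccl3, Tnfaip3, Zfp36 and Egr1. Whether their probe sets lost response there was not tested.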

Other observations

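Zinc finger genes recurred among the transcripts higher in lymph node. Of the 40 called higher genes, 7 had symbols that start with Zfp and a number, and they were noticed after the values were seen. Of 230 such genes tested, 57 (24.8%) were members on the higher side, against 9.3% of all genes, and 11 (4.78%) on the lower side, against 10.4%. Among these 230 genes 7 were called higher, against 0.366% of all genes, and 1 lower, against 0.44%. Their median difference was 0.18 and their median spleen level was 6.76, where all genes had -0.02 and 7.75. Most encode nuclear zinc finger proteins with many fingers, but the symbol also covers Zfp36, an RNA-binding protein called lower. Probe sets of this multigene family can cross-hybridise, which was not tested.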
